A study of Homo sapiens with 21 samples.

Results

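Aminoacyl-tRNA synthetases are the enzymes that join each amino acid to its transfer RNA, and 35 of their genes, of the 54042 genes in the count table, were followed through ironomycin treatment of MV4-11 cells. They were listed by symbol, with earlier results of these data known. Symbols ending in 2 form the mitochondrial class of 16 genes and the others form the cytosolic class of 19 genes. GARS1 and KARS1 stand in the cytosolic class although each also encodes the enzyme of mitochondria. All 35 passed the filter on low counts and were tested. MV4-11 is a human leukaemia line with myelomonocytic and B-lymphoid features. Messenger RNA was counted by 3′ sequencing in 7 groups of 3 libraries. Wild type cells were in DMSO or had 6 h or 24 h of ironomycin (AM5), a salinomycin derivative that acts on cellular iron. HK2 knockout cells, edited in hexokinase 2, had 24 h of ironomycin or DMSO. PGP knockout cells, edited in phosphoglycolate phosphatase, also had 24 h of ironomycin or DMSO. All groups derive from 1 cell line. The labels give no ironomycin dose, no time in DMSO, no number of knockout clones and no word on separate cultures, so p-values measure the spread between libraries, which may be technical.

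A human cell has a cytosolic and a mitochondrial set of synthetases because mitochondria translate their own messenger RNAs. Nuclear genes encode both sets, and the mitochondrial enzymes are imported after synthesis in the cytosol. When protein synthesis is curbed by phosphorylation of the initiation factor eIF2, the transcription factor ATF4 is made and raises genes of amino acid supply, several cytosolic synthetases among them. ATF4 binds with C/EBP partners to a short composite element in such promoters. WARS1, the cytosolic tryptophan enzyme, is also a classical interferon-induced gene.

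The windows below show that composite element, or the interferon element, in the promoters of 6 synthetases that rose at 6 h. They are printed 5′ to 3′ on the strand of the gene, and the capitals mark the match. The sequences are from RefSeq on GRCh38.p14, in promoters of 300 bases that run from 250 bases before to 50 bases after an annotated start.
AARS1: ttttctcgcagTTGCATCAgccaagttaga
CARS1: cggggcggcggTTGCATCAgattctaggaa
GARS1: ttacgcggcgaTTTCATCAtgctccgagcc
NARS1: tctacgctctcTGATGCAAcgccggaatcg
TARS1: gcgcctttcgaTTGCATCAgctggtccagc
WARS1: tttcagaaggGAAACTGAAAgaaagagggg

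The AARS1 window is at chr16:70289675-70289704 on the minus strand, and its match begins 187 bases before the start. The CARS1 window is at chr11:3057407-3057436 on the minus strand, with the match 2 bases before the start. GARS1 has its window at chr7:30594834-30594863 on the plus strand, and the match begins 33 bases before the start. NARS1 has its window at chr18:57621804-57621833 on the minus strand, and the match opens at base 15 of the transcript. The TARS1 window is at chr5:33440956-33440985 on the plus strand, with the match at base 3 of the transcript. The WARS1 window is at chr14:100375383-100375412 on the minus strand, and its interferon element begins 55 bases before the start.

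The composite element was searched as TGATGNAA on both strands, and the interferon element as GAAA, any 2 bases and GAAA on both strands. Of the 35 genes, 30 had a promoter entry. LARS1, VARS1, YARS1, AARS2 and VARS2 had none. TGATGNAA was found in 7 of 16 cytosolic genes, namely AARS1, CARS1, GARS1, IARS1, MARS1, NARS1 and TARS1. It was found in 1 of 14 mitochondrial genes, YARS2. Over the whole promoter set it was in 3.62% of 35116 promoters, or 4.46% of 27305 gene symbols. The 6 cytosolic genes other than GARS1 held the full core TGATGCAA, which was in 0.866% of promoters. The interferon element was found in WARS1 and in EARS2, and in 3.57% of promoters. Of the cytosolic genes with an entry, 5 of 9 that rose at 6 h held TGATGNAA, and 2 of 7 that did not rise held it. A match describes letters in a window and not a bound site.

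Depth was similar over the series, at 3829274 to 6069264 counts in a library with a median of 4823817. Over all 21 libraries the cytosolic genes had between 714 (HARS1) and 43071 (FARSA) counts, and the mitochondrial genes between 723 (NARS2) and 6228 (CARS2). The median SE of a log2 fold change at 6 h was 0.20 for mitochondrial genes and 0.12 for cytosolic genes. HK2 was at 19.99 to 24.8 CPM (counts scaled to a common library size) in HK2 knockout DMSO libraries and 42.4 to 69.5 CPM in wild type DMSO libraries. PGP was at 71.0 to 83.6 CPM in PGP knockout DMSO libraries and 86.8 to 95.5 CPM in wild type DMSO libraries. Both targets were thus lower and not at 0, and a 3′ tag need not lie in the edited part. In the edgeR test used below, 0 genes were called lower in either knockout against wild type in DMSO, the targets included. Of 12 markers of the line, 10 averaged at least 5 CPM, of 6 B-lymphoid markers only IGLL1 did, and 11 of 12 markers of other cell types were under 1 CPM. Replicate 2 of wild type 6 h stood apart from the other libraries of its group, with an SD of its gene deviations of 0.675 against 0.332 to 0.480 in the other 20 libraries, so results at 6 h are also given without it where they change.

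The classes moved apart under ironomycin in every genotype. Class level is here the mean over the genes of a class of log2 CPM, relative to the wild type DMSO mean. Over all genes tested the same measure was 0.04, -0.05 and 0.06 in wild type 6 h libraries. It was 0.08, 0.06 and 0.08 in wild type 24 h libraries. The cytosolic class was at 0.40, 0.43 and 0.43 in the 6 h libraries and at 0.29, 0.35 and 0.26 in the 24 h libraries of wild type cells, against -0.05, -0.03 and 0.08 in DMSO. The mitochondrial class was at -0.11, -0.27 and -0.03 at 6 h and at -0.29, -0.25 and -0.14 at 24 h, against -0.04, 0.03 and 0.02 in DMSO. All 6 treated wild type libraries were therefore above DMSO for the cytosolic class, and 5 of the 6 were below DMSO for the mitochondrial class by this measure, with replicate 3 at 6 h inside the DMSO range.

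In HK2 knockout cells the cytosolic class averaged 0.22 ± 0.04 after 24 h and -0.02 ± 0.09 in DMSO (SD, n = 3 each). The mitochondrial class averaged -0.23 ± 0.09 after 24 h and -0.04 ± 0.09 in DMSO. In PGP knockout cells the cytosolic class averaged 0.28 ± 0.01 after 24 h and -0.01 ± 0.07 in DMSO. The mitochondrial class averaged -0.29 ± 0.07 after 24 h and -0.03 ± 0.09 in DMSO. The 24 h and DMSO libraries of a genotype did not overlap in either class, and they came closest for the mitochondrial class of HK2 knockout cells, at -0.14 in the highest 24 h library and -0.13 in the lowest DMSO library. The gap between the class means was 0.56 ± 0.13 at 6 h and 0.52 ± 0.11 at 24 h in wild type, 0.45 ± 0.12 in HK2 knockout and 0.57 ± 0.06 in PGP knockout cells at 24 h, and between 0.00 and 0.01 in the 3 DMSO groups. Over all genes tested the measure was between 0.06 and 0.09 in the 24 h libraries of the 2 knockout lines. The class levels and gaps are descriptions of the listed genes and carry no test. In bulk cultures, a change in the RNA of each cell and a change in which cells remain cannot be told apart.

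**Figure D1:**
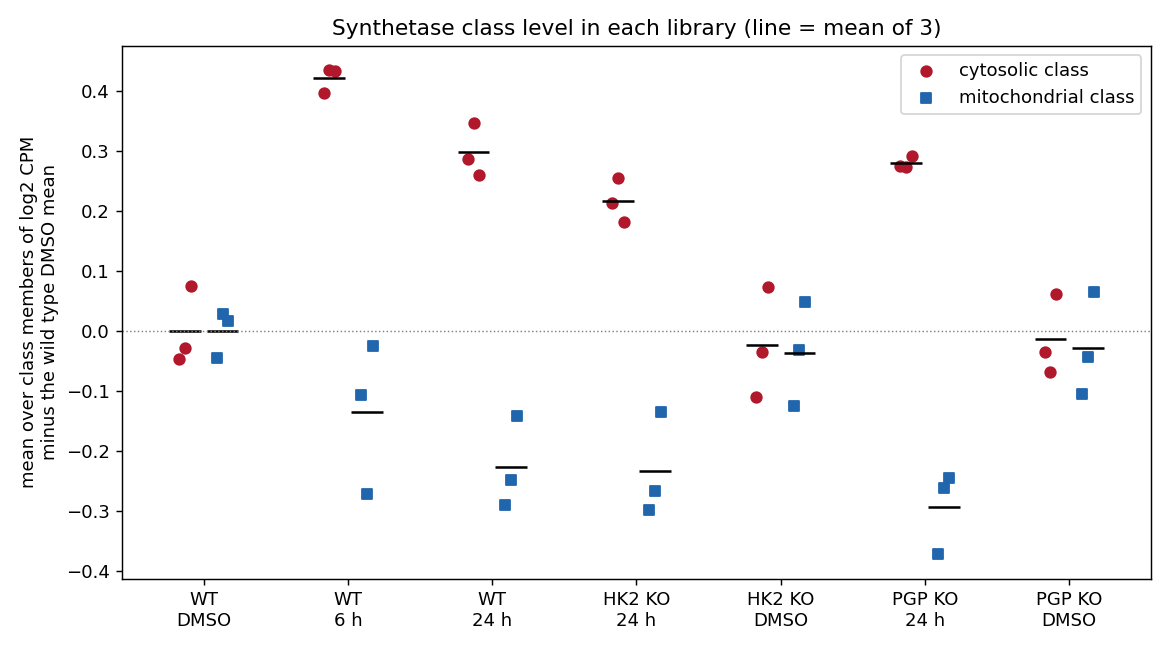
Mean over the 19 cytosolic (circles) and 16 mitochondrial (squares) synthetases of log2 CPM minus the wild type DMSO mean, for each of 3 libraries in 7 groups, with a line at each group mean. Treated groups have the cytosolic class above 0 and the mitochondrial class below it, and the classes lie together near 0 in the 3 DMSO groups.

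At 6 h in wild type cells, 10 of 19 cytosolic synthetases rose, HARS1 fell and 8 were not called. A call is an adjusted p under 0.05 in edgeR's quasi-likelihood test, with the Benjamini-Hochberg adjustment made across the 11610 genes tested, of which 10.9% were called higher and 11.1% lower. The cytosolic median log2 fold change was 0.38, beside 0.02 over all genes. CARS1, the cysteine enzyme, had 325, 415 and 274.5 CPM in 6 h libraries and 97.5, 101 and 103 CPM in DMSO libraries, a log2 fold change of 1.75 ± 0.12 (SE, adjusted p = 1.6e-09). AARS1, the alanine enzyme, had 357, 532 and 378 CPM at 6 h and 127, 140.0 and 148 CPM in DMSO, a log2 fold change of 1.61 ± 0.17 (adjusted p = 4.4e-07). In both genes the lowest 6 h library was far above the highest DMSO library, and replicate 2 was the highest at 6 h.

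WARS1 had 101, 117 and 118 CPM at 6 h and 42.2, 36.7 and 58.2 CPM in DMSO, a log2 fold change of 1.29 ± 0.15 (adjusted p = 1.8e-06). GARS1, the glycine enzyme of both compartments, had 343, 397 and 354 CPM at 6 h and 151, 164 and 171 CPM in DMSO, a log2 fold change of 1.17 ± 0.12 (adjusted p = 3.8e-07). The groups did not overlap for either gene. The rises of SARS1 (serine, 0.73 ± 0.13), YARS1 (tyrosine, 0.69 ± 0.14), TARS1 (threonine, 0.65 ± 0.11), EPRS1 (glutamate and proline on 1 chain, 0.59 ± 0.11) and NARS1 (asparagine, 0.56 ± 0.11) were smaller on the log2 scale. QARS1, the glutamine enzyme, had the smallest called rise, 0.30 ± 0.10 (adjusted p = 0.038), and lost it without replicate 2 of 6 h and under 4 other settings. The other 9 rises held under every setting tried.

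HARS1, the histidine enzyme, was the cytosolic gene called against its class. It had 4.27, 1.53 and 4.87 CPM at 6 h and 9.19, 8.14 and 11.1 CPM in DMSO, a log2 fold change of -1.40 ± 0.32 (adjusted p = 0.0032). It rested on few counts, and its annotated 3′ end overlaps that of WDR55 on the opposite strand. Whether counting used strand is not given in the sources used here, so reads of the 2 genes may not be separated. WDR55 itself had a log2 fold change of -0.33 (adjusted p = 0.17).

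KARS1, the lysine enzyme of both compartments, had 252, 245 and 208 CPM at 6 h and 295, 226 and 225 CPM in DMSO, with a log2 fold change of -0.08 ± 0.11 that was not called. The libraries of the 2 groups overlapped, and the difference between KARS1 and GARS1, the other gene of both compartments, was not tested. The phenylalanine enzyme is built of FARSA and FARSB, whose log2 fold changes were -0.30 ± 0.15 and -0.07 ± 0.11, neither called. VARS1 (valine) had 0.27 ± 0.15, not called. IARS1 (isoleucine) spread widely, with 95.8, 44.1 and 138 CPM at 6 h and 67.2, 68.5 and 139 CPM in DMSO, so no direction could be read. Replicate 2 was low for IARS1 and MARS1 and high for FARSA. Without it, MARS1 rose by 0.64 (adjusted p = 0.013) and FARSA fell by 0.57 (adjusted p = 0.0028) on the log2 scale, and 10 cytosolic genes were called higher and 2 lower.

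At 6 h the mitochondrial class had 2 genes higher, 2 lower and 12 not called, which is close to the shares over all genes, and a median log2 fold change of -0.18. SARS2, the mitochondrial serine enzyme, had 31.6, 56.7 and 33.6 CPM at 6 h and 26.9, 23.6 and 19.1 CPM in DMSO, a log2 fold change of 0.81 ± 0.18 (adjusted p = 0.0028). VARS2, the valine enzyme, had 22.0, 27.7 and 18.7 CPM at 6 h and 13.4, 17.1 and 13.8 CPM in DMSO, a log2 fold change of 0.63 ± 0.20 (adjusted p = 0.028). In both genes every 6 h library was above every DMSO library.

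EARS2, the mitochondrial glutamate enzyme, had 17.9, 18.6 and 20.4 CPM at 6 h and 24.0, 29.01 and 33.3 CPM in DMSO, a log2 fold change of -0.60 ± 0.16 (adjusted p = 0.0072). MARS2, the methionine enzyme, had 6.83, 1.96 and 8.999 CPM at 6 h and 12.7, 10.2 and 19.6 CPM in DMSO, a log2 fold change of -1.25 ± 0.40 (adjusted p = 0.030). Neither pair of groups overlapped, and replicate 2 was the lowest library for MARS2. YARS2 (tyrosine) had -0.55 ± 0.23 and LARS2 (leucine) -0.18 ± 0.17, neither called. Each of the 4 calls was lost under at least 1 setting. Without replicate 2 of 6 h, VARS2 and MARS2 were lost and TARS2 (threonine) was called higher by 0.63 (adjusted p = 0.0072). Without replicate 3 of DMSO 1 mitochondrial call was left.

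**Figure D2:**
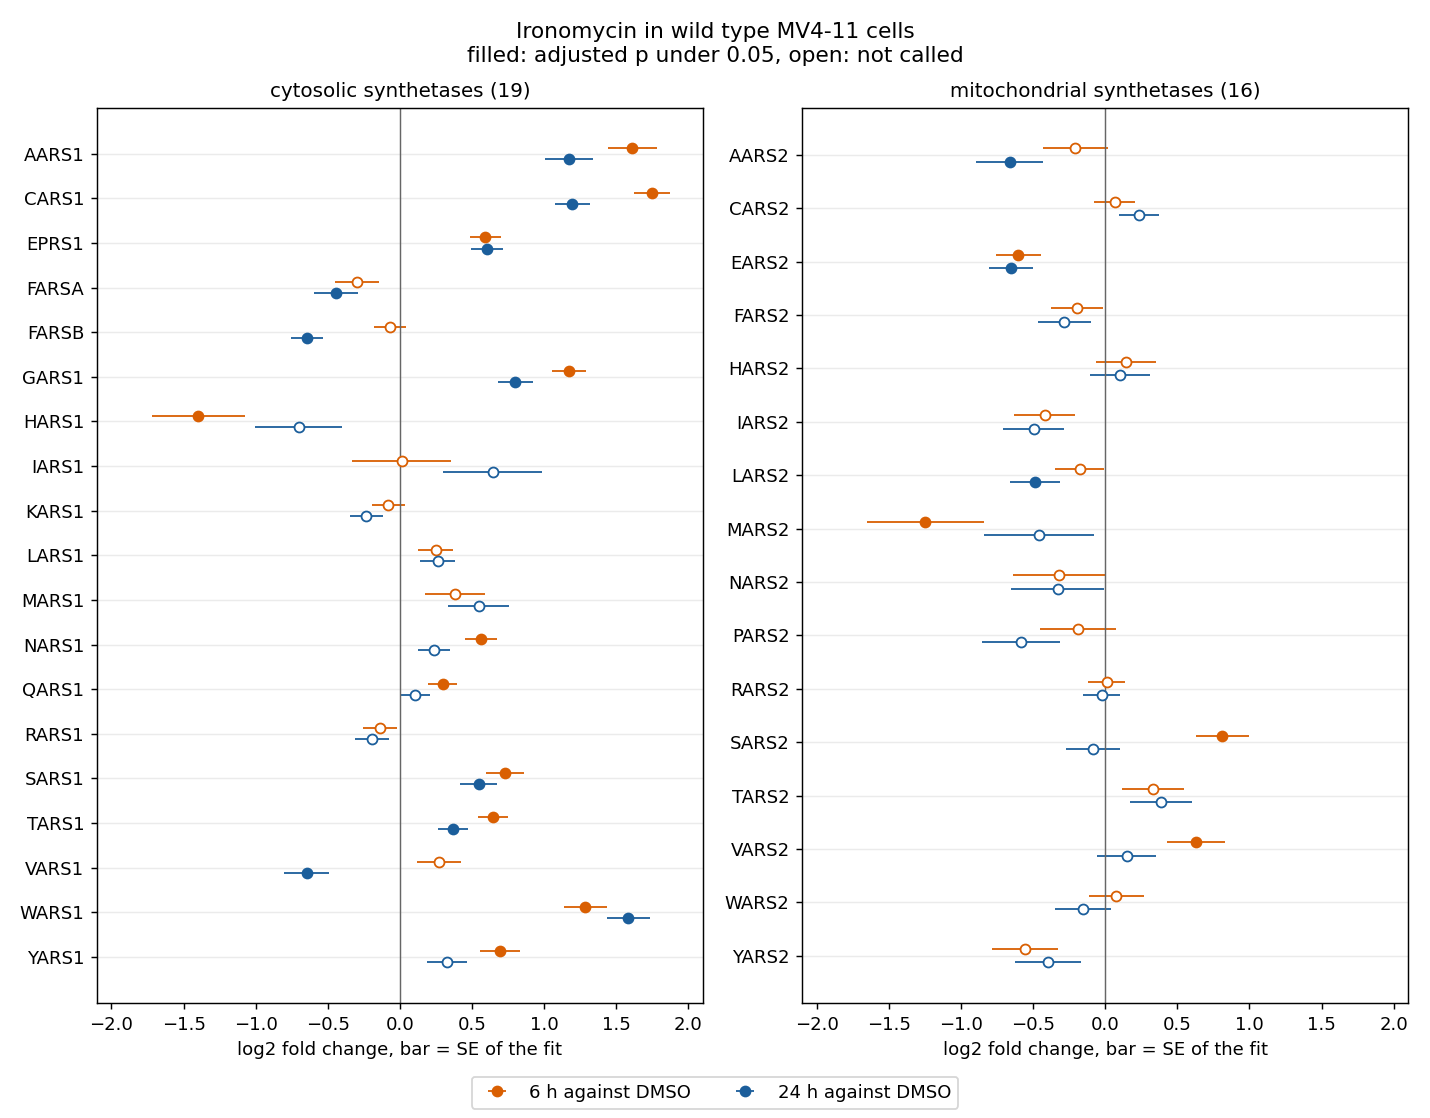
Log2 fold change against DMSO of each cytosolic (left) and mitochondrial (right) synthetase in wild type cells after 6 h (orange) and 24 h (blue), with bars for the SE of the fit and filled points for adjusted p under 0.05. CARS1, AARS1, WARS1 and GARS1 lie farthest to the right at both times, and the mitochondrial points lie mostly left of 0 at 24 h.

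At 24 h in wild type cells 7 cytosolic genes were higher, 3 were lower and 9 were not called, beside 15.3% higher and 14.6% lower over all genes. The cytosolic median log2 fold change was 0.32, and 0.03 over all genes. The 6 h and 24 h comparisons share their DMSO libraries. The 7 higher genes were WARS1 (1.58 ± 0.15), CARS1 (1.20 ± 0.12), AARS1 (1.17 ± 0.17), GARS1 (0.80 ± 0.12), EPRS1 (0.61 ± 0.11), SARS1 (0.55 ± 0.13) and TARS1 (0.37 ± 0.11). WARS1 had 143, 147 and 122 CPM at 24 h against 42.2, 36.7 and 58.2 CPM in DMSO (adjusted p = 4.1e-08). CARS1 had 223, 231 and 237 CPM at 24 h against 97.5, 101 and 103 CPM in DMSO (adjusted p = 1.8e-07). The call of TARS1 was lost without replicate 1 of DMSO, without replicate 3 of 24 h and with no low-count filter.

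Both chains of the phenylalanine enzyme and the valine enzyme were lower at 24 h. FARSB had 87.1, 107 and 93.3 CPM at 24 h and 144.5, 158 and 148 CPM in DMSO, a log2 fold change of -0.65 ± 0.11 (adjusted p = 9.8e-05). VARS1 had 68.0, 72.4 and 53.7 CPM at 24 h and 114, 98.3 and 91.6 CPM in DMSO, a log2 fold change of -0.65 ± 0.16 (adjusted p = 0.0027). FARSA had 407, 348 and 356 CPM at 24 h and 558, 495 and 455 CPM in DMSO, a log2 fold change of -0.44 ± 0.15 (adjusted p = 0.032). No 24 h library of these 3 genes reached the DMSO range. FARSB and VARS1 held under every setting, and FARSA was lost when replicate 1 or 2 of DMSO or replicate 2 or 3 of 24 h was left out. NARS1, YARS1 and QARS1, called at 6 h, had 0.24 ± 0.11, 0.32 ± 0.14 and 0.11 ± 0.10 at 24 h and were not called. MARS1 (0.55 ± 0.21), IARS1 (0.64 ± 0.34), KARS1 (-0.23 ± 0.11) and HARS1 (-0.70 ± 0.30) were not called either.

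Among mitochondrial genes at 24 h, 3 were lower, 13 were not called and 0 were higher by edgeR, with 0 higher at an unadjusted p under 0.05 and 0 by DESeq2. Over all genes edgeR called 15.3% higher and 14.6% lower, and the count of lower mitochondrial genes is near that share. The median log2 fold change was -0.31, and 12 of 16 were negative. EARS2 had 19.9, 17.7 and 17.5 CPM at 24 h and 24.0, 29.01 and 33.3 CPM in DMSO, a log2 fold change of -0.65 ± 0.16 (adjusted p = 0.0026) that held under every setting. LARS2 had 11.9, 12.9 and 13.6 CPM at 24 h and 21.1, 17.5 and 15.4 CPM in DMSO, a log2 fold change of -0.49 ± 0.17 (adjusted p = 0.036). AARS2, the alanine enzyme, had 9.86, 6.15 and 6.22 CPM at 24 h and 13.4, 12.3 and 9.62 CPM in DMSO, a log2 fold change of -0.66 ± 0.23 (adjusted p = 0.035). The groups overlapped for AARS2 and not for EARS2 or LARS2. DESeq2 called EARS2 alone, and 1 gene was left when replicate 1 or 2 of DMSO or replicate 2 of 24 h was left out. SARS2 (-0.08 ± 0.19), VARS2 (0.15 ± 0.20) and MARS2 (-0.46 ± 0.38), all called at 6 h, were not called at 24 h.

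The direct comparison of 24 h with 6 h in wild type cells had no DMSO libraries in it. In the cytosolic class 5 genes (CARS1, FARSB, GARS1, NARS1 and VARS1) and in the mitochondrial class SARS2 were lower at 24 h, and 0 members were higher by edgeR, beside 8.08% lower and 8.48% higher over all genes. At an unadjusted p under 0.05, 1 cytosolic and 0 mitochondrial genes were higher, and DESeq2 called 0 higher. The median log2 fold change was -0.18 in the cytosolic and -0.06 in the mitochondrial class, beside 0.01 over all genes. VARS1 had 68.0, 72.4 and 53.7 CPM at 24 h and 110.1, 153 and 105 CPM at 6 h, a log2 fold change of -0.92 ± 0.16 (adjusted p = 0.00022). FARSB had 87.1, 107 and 93.3 CPM at 24 h and 135.5, 160.2 and 133 CPM at 6 h, a log2 fold change of -0.58 ± 0.11 (adjusted p = 0.00078). SARS2 had 23.2, 18.4 and 23.7 CPM at 24 h and 31.6, 56.7 and 33.6 CPM at 6 h, a log2 fold change of -0.90 ± 0.19 (adjusted p = 0.0017). None of these groups overlapped.

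CARS1 had a log2 fold change of -0.55 ± 0.12 (adjusted p = 0.0025), GARS1 of -0.37 ± 0.12 (adjusted p = 0.034) and NARS1 of -0.33 ± 0.11 (adjusted p = 0.0496). AARS1 had -0.44 ± 0.16 and was not called. WARS1 had 143, 147 and 122 CPM at 24 h and 101, 117 and 118 CPM at 6 h, a log2 fold change of 0.30 ± 0.14 that was not called. GARS1 and NARS1 were lost without replicate 2 of 6 h or any 1 of the 24 h libraries. The cytosolic count was 3 without replicate 2 of 6 h, without replicate 1 of 24 h or without replicate 3 of 24 h.

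**Figure D3:**
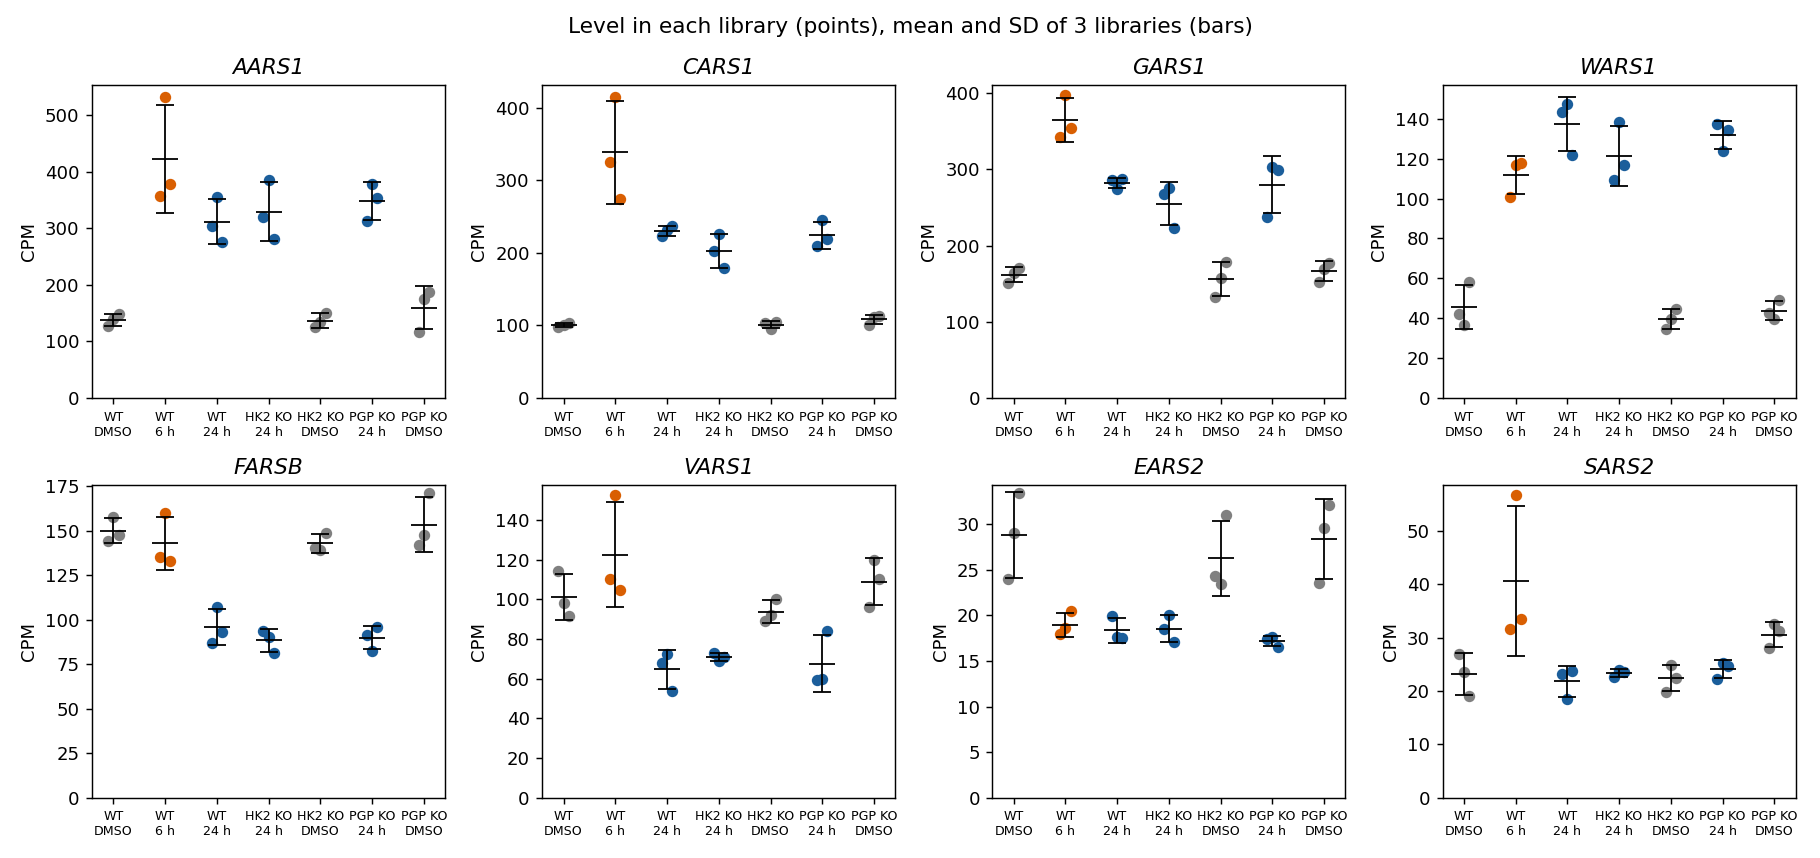
CPM in each of 3 libraries of 7 groups for 8 synthetases, each panel with its own axis from 0, with bars for the mean and SD. AARS1, CARS1, GARS1 and WARS1 are higher in every treated library than in any DMSO library. FARSB and VARS1 are low in the 24 h groups, and EARS2 is low in all treated groups. SARS2 has its highest mean at 6 h, where its libraries overlap those of PGP knockout DMSO.

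After 24 h each knockout line was set against its own DMSO libraries. In HK2 knockout cells 8 cytosolic genes were higher and 2 lower (15.9% and 13.5% over all genes), with a median log2 fold change of 0.29. In PGP knockout cells 11 were higher and 4 lower (16.1% and 15.4% over all genes), with a median of 0.38. The median over all genes was 0.03 in HK2 knockout and 0.04 in PGP knockout cells. AARS1, CARS1, EPRS1, GARS1, SARS1, TARS1 and WARS1 were higher in all 3 genotypes, and FARSB was lower in all 3. The share of all genes called alike in all 3 genotypes was not counted. QARS1 was the further rise in HK2 knockout cells (0.29 ± 0.10, adjusted p = 0.033). Its call was lost under 6 of 11 other settings, among them 5 left-out libraries. IARS1, LARS1, MARS1 and NARS1 were the further rises in PGP knockout cells. Of 11 other settings, the call of NARS1 was lost under 8, those of LARS1 and MARS1 under 4 each and that of SARS1 in this line under 3.

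WARS1 had 109, 138 and 117 CPM after 24 h and 34.6, 39.4 and 44.8 CPM in DMSO in HK2 knockout cells, a log2 fold change of 1.61 ± 0.15. WARS1 in PGP knockout cells had 137, 124 and 134 CPM after 24 h and 42.5, 39.7 and 49.2 CPM in DMSO, a log2 fold change of 1.59 ± 0.15. With 1.58 in wild type, WARS1 had a span of 0.03 between the 3 genotypes, the least of the 35 genes. AARS1 had 320.2, 385 and 282 CPM after 24 h and 125, 134 and 150.3 CPM in DMSO in HK2 knockout cells, a log2 fold change of 1.27 ± 0.17. AARS1 in PGP knockout cells had 313, 379 and 352.5 CPM after 24 h and 117, 175 and 187 CPM in DMSO, a log2 fold change of 1.12 ± 0.17. The treated and DMSO libraries were apart in all of these.

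CARS1 had log2 fold changes of 1.00 ± 0.12 in HK2 knockout and 1.05 ± 0.12 in PGP knockout cells. GARS1 had 0.71 ± 0.12 in HK2 knockout and 0.75 ± 0.12 in PGP knockout cells. FARSB had -0.69 ± 0.11 in HK2 knockout cells, with 93.8, 90.1 and 81.3 CPM after 24 h and 140.4, 139 and 149 CPM in DMSO. It had -0.77 ± 0.11 in PGP knockout cells, with 91.3, 82.7 and 95.9 CPM after 24 h and 142, 147 and 171 CPM in DMSO. FARSA was lower in PGP knockout cells (-0.78 ± 0.15, adjusted p = 0.00045) and had -0.32 ± 0.15, not called, in HK2 knockout cells. VARS1 was lower in PGP knockout cells (-0.68 ± 0.16, adjusted p = 0.0017) and had -0.40 ± 0.16 in HK2 knockout cells (adjusted p = 0.053), where 5 other settings called it.

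RARS1, the arginine enzyme, was lower in HK2 knockout cells (-0.33 ± 0.12, adjusted p = 0.036), a call lost under 5 of 11 other settings, 4 of them left-out libraries. KARS1 was lower in PGP knockout cells, with 197, 206 and 204 CPM after 24 h and 281, 244 and 269 CPM in DMSO (-0.39 ± 0.12, adjusted p = 0.013). KARS1 had -0.21 ± 0.12 in HK2 knockout cells, not called, and GARS1 was higher in both lines. IARS1 in PGP knockout cells had 184, 87.4 and 151 CPM after 24 h and 68.5, 48.9 and 66.5 CPM in DMSO, a log2 fold change of 1.20 ± 0.35 (adjusted p = 0.012). That call was lost without replicate 2 of DMSO or replicate 1 of 24 h. In HK2 knockout cells IARS1 had 0.60 ± 0.34 and was not called. The smaller rises of SARS1, TARS1 and EPRS1 in HK2 knockout cells (0.36, 0.33 and 0.36) were each lost under at least 2 left-out libraries. Without replicate 1 or replicate 3 of HK2 knockout DMSO, 6 cytosolic genes were called in place of 10.

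In the mitochondrial class 2 of 16 genes were lower in HK2 knockout cells (13.5% over all genes) and 3 of 16 in PGP knockout cells (15.4% over all genes), counts near those shares. EARS2 and LARS2 were lower in all 3 genotypes, with no share over all genes counted for this. EARS2 had 18.5, 19.97 and 17.1 CPM after 24 h and 24.3, 23.4 and 30.9 CPM in DMSO in HK2 knockout cells, a log2 fold change of -0.50 ± 0.16 (adjusted p = 0.018). EARS2 in PGP knockout cells had 17.4, 17.7 and 16.6 CPM after 24 h and 23.5, 29.5 and 32.0 CPM in DMSO, a log2 fold change of -0.73 ± 0.16 (adjusted p = 0.0012). LARS2 had 9.97, 11.2 and 14.2 CPM after 24 h and 15.9, 17.5 and 20.6 CPM in DMSO in HK2 knockout cells, a log2 fold change of -0.60 ± 0.17 (adjusted p = 0.012). LARS2 in PGP knockout cells had 11.5, 12.3 and 15.6 CPM after 24 h and 18.7, 17.6 and 21.1 CPM in DMSO, a log2 fold change of -0.54 ± 0.17 (adjusted p = 0.022). No treated library of EARS2 or LARS2 reached the DMSO libraries of its genotype. The call of EARS2 was lost under 3 of 11 other settings in HK2 knockout cells and under 0 in PGP knockout cells, and that of LARS2 under 2 in HK2 knockout, 4 in PGP knockout and 6 in wild type cells.

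YARS2 was also lower in PGP knockout cells (-0.62 ± 0.23, adjusted p = 0.047), with overlapping libraries and an annotated 3′ end that overlaps DNM1L. That call was lost with DESeq2 and with 4 left-out libraries. AARS2 had -0.57 ± 0.24 in HK2 knockout and -0.56 ± 0.24 in PGP knockout cells, neither called. In both lines 0 mitochondrial genes were higher by edgeR, at an unadjusted p under 0.05 or by DESeq2. By edgeR 15.9% of all genes were higher in HK2 knockout and 16.1% in PGP knockout cells. Without replicate 3 of HK2 knockout DMSO 0 mitochondrial genes were called, and without replicate 1 of HK2 knockout 24 h 1 was. In PGP knockout cells 1 was called without replicate 3 of DMSO or replicate 1 of 24 h.

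Over the 5 treatment comparisons, each of the 19 cytosolic genes was called at least once. Of the 16 mitochondrial genes 7 were, beside 51.5% of all genes tested, so the mitochondrial count is near that share. The single calls of IARS1, LARS1, MARS1 and RARS1, and both calls of QARS1, were each lost under at least 2 other settings. Every cytosolic gene but HARS1 also had more counts than any mitochondrial gene. The sign of the log2 fold change at 24 h was shared by the 3 genotypes for 18 cytosolic genes, QARS1 being the exception, and for 10 of 16 mitochondrial genes, beside 73.3% of all genes tested. The mitochondrial count is a little below that share, a gap of few genes that was not tested. Across the 35 genes, the log2 fold changes of the lines at 24 h had a Pearson correlation of 0.94 for HK2 knockout with wild type, 0.94 for PGP knockout with wild type and 0.91 for HK2 knockout with PGP knockout. Over all 11610 genes the same values were 0.83, 0.84 and 0.82. The points of a pair come from separate libraries, and genes are not independent replicates.

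**Figure D4:**
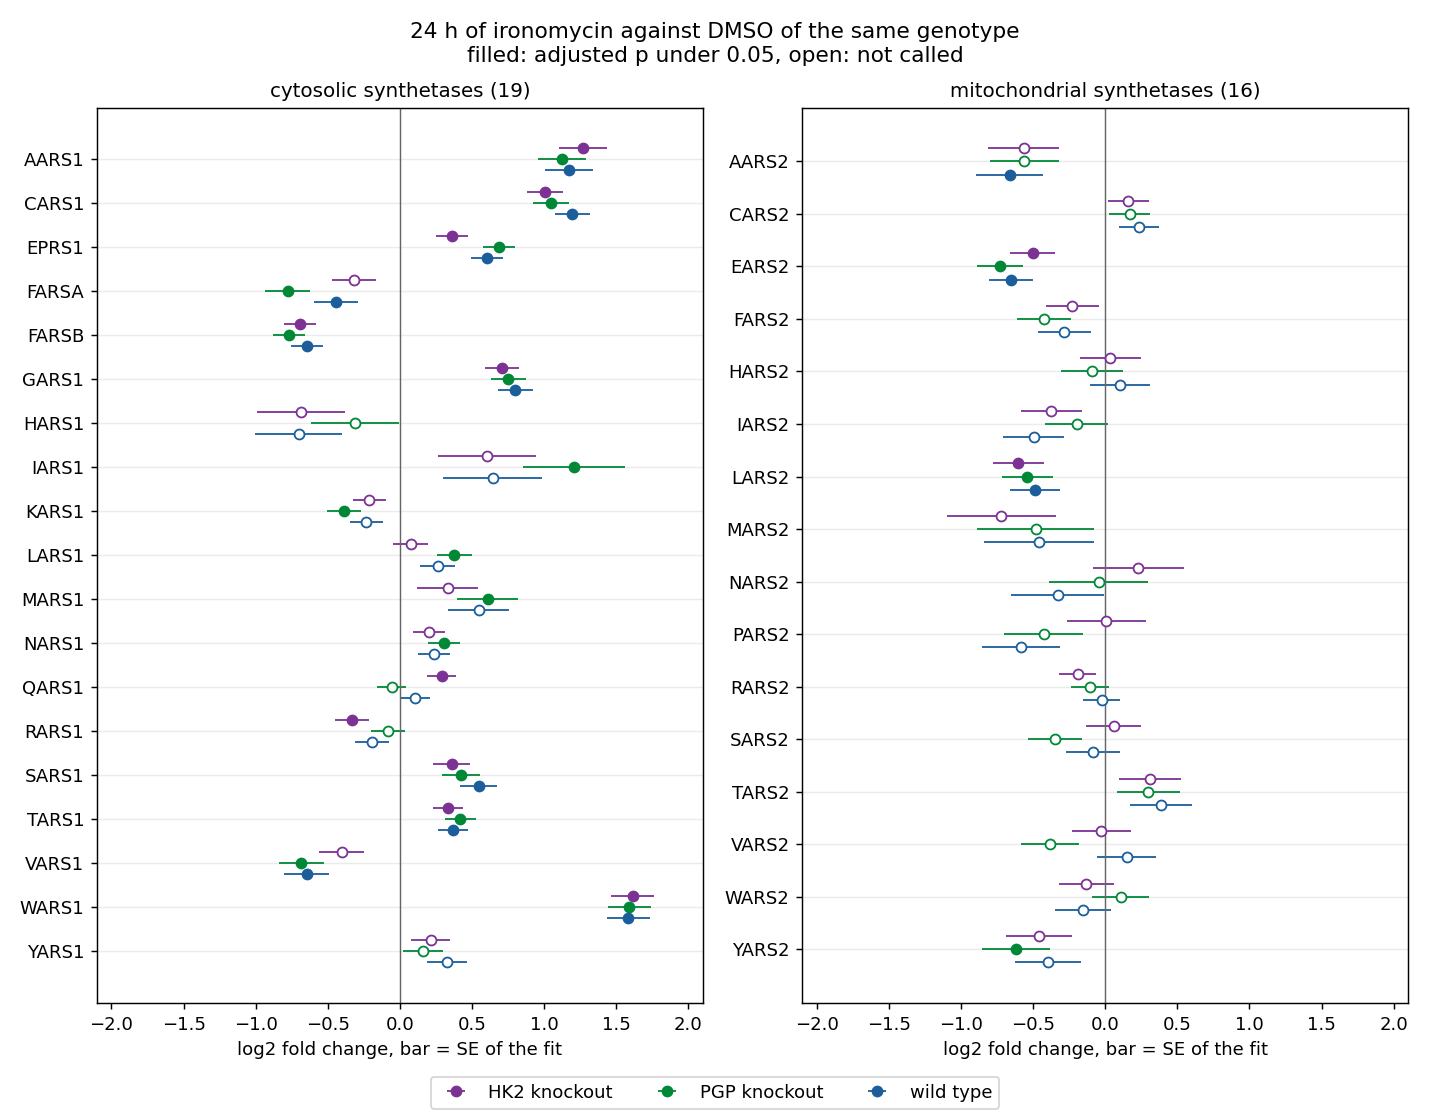
Log2 fold change after 24 h of ironomycin against DMSO of the same genotype for each cytosolic (left) and mitochondrial (right) synthetase, in HK2 knockout (purple), PGP knockout (green) and wild type cells (blue), with bars for the SE and filled points for adjusted p under 0.05. The 3 lines lie close together for AARS1, CARS1, GARS1, WARS1, FARSB, EARS2 and LARS2.

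No synthetase was called between knockout and wild type cells in DMSO. Against wild type in DMSO, edgeR called 0 members in HK2 knockout cells, where 0.00861% of all genes were called, and 0 members in PGP knockout cells, where 0.0% were. At an unadjusted p under 0.05 there were 0 members in HK2 knockout cells, and in PGP knockout cells VARS2 (0.64 ± 0.20, adjusted p = 0.68), QARS1 (0.28 ± 0.10, adjusted p = 0.82) and SARS2 (0.41 ± 0.19, adjusted p = 0.88), all higher. DESeq2 called 0 members in either line. By edgeR the edited genes HK2 and PGP were not called lower in their own lines either. IARS1 had 68.5, 48.9 and 66.5 CPM in PGP knockout DMSO and 67.2, 68.5 and 139 CPM in wild type DMSO, a log2 fold change of -0.59 ± 0.35 (adjusted p = 0.89). With no low-count filter it alone was called (adjusted p = 0.0070), and without replicate 3 of wild type DMSO its log2 fold change was -0.15.

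The difference between each knockout and wild type in the 24 h response was also tested. It was called for 0 members in either line by edgeR, where 0.0% of all genes were called, for 0 at an unadjusted p under 0.05 and for 0 by DESeq2. The median SE of these differences was 0.22 for both lines on the log2 scale, so small differences between the lines were not detectable at this depth. The calls that stand in 1 genotype only, such as RARS1, QARS1, IARS1 and KARS1, are therefore not shown to differ between genotypes.

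Set by amino acid, 13 cytosolic genes have a mitochondrial partner under the same root name. The cytosolic member had the higher log2 fold change in 9 of 13 at 6 h and 9 of 13 at 24 h in wild type, in 9 of 13 in HK2 knockout and in 11 of 13 in PGP knockout cells. At 24 h in wild type the alanine pair stood at 1.17 and -0.66 (AARS1 and AARS2), the tryptophan pair at 1.58 and -0.15 (WARS1 and WARS2) and the leucine pair at 0.26 and -0.49 (LARS1 and LARS2). In 4 of the 13 pairs the mitochondrial member was higher, at -0.70 and 0.10 for HARS1 and HARS2, -0.65 and 0.15 for VARS1 and VARS2, -0.19 and -0.02 for RARS1 and RARS2, and 0.37 and 0.39 for TARS1 and TARS2. The serine pair was the one in which both members were called higher, at 6 h. These gaps between genes were not tested.

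Among cytosolic genes, 7 encode parts of the multisynthetase complex, in which several synthetases sit together on scaffold proteins. At 6 h 2 of these 7 (EPRS1 and QARS1) and 8 of the 12 others were higher, and at 24 h in wild type 1 of 7 and 6 of 12. In PGP knockout cells at 24 h 4 of 7 and 7 of 12 were higher. Over all genes 10.9% were higher at 6 h, 15.3% at 24 h in wild type and 16.1% in PGP knockout cells. The 1 of 7 at 24 h in wild type is near that share, and the QARS1 call at 6 h was lost under 5 other settings. Differences between these groups of genes were not tested. Of the cytosolic genes in the structural classes of the enzyme family, 4 of 9 of class I and 5 of 9 of class II were higher at 6 h. EPRS1 joins both classes in 1 protein.

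Factors that work beside the synthetases were called in both directions. Of 16 tested tRNA charging partners, 2 were higher and 3 lower at 6 h and 1 higher and 4 lower at 24 h in wild type. In HK2 knockout cells 1 was higher and 3 lower, and in PGP knockout cells 2 higher and 5 lower. Over all genes 10.9% were higher and 11.1% lower at 6 h, and 15.3% and 14.6% at 24 h in wild type. The shares were 15.9% and 13.5% in HK2 knockout and 16.1% and 15.4% in PGP knockout cells, so most of these counts are near them. XPOT, which exports tRNA from the nucleus, was higher at 6 h (0.55 ± 0.14) and at 24 h in wild type (0.52 ± 0.14), HK2 knockout (0.69 ± 0.14) and PGP knockout cells (0.68 ± 0.14). ELAC2, which trims the 3′ end of precursor tRNA, was lower at 6 h (-0.59) and at 24 h in wild type (-0.77), HK2 knockout (-0.56) and PGP knockout cells (-0.93). QRSL1 encodes a subunit of the mitochondrial amidotransferase that turns the glutamate charged by EARS2 into glutamine. It was lower at 24 h in wild type (-0.59 ± 0.15), HK2 knockout (-0.78 ± 0.15) and PGP knockout cells (-0.45 ± 0.15), where EARS2 was also lower. At 6 h, where EARS2 was lower too, QRSL1 had 0.01 ± 0.14 and was not called. The other subunits of this enzyme, GATB and GATC, did not move alike. GATC was lower at 6 h (-0.89 ± 0.21) and at 24 h in wild type (-0.56 ± 0.21). In HK2 knockout cells GATC had -0.37 ± 0.21 and was not called. GATB was not called at 6 h (0.06) or at 24 h in wild type (-0.39) and HK2 knockout cells (-0.06). It was lower in PGP knockout cells (-0.67 ± 0.20).

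Other targets of ATF4 and CHOP, with no synthetase among them, were counted beside the members. Of 26 tested, 24 were higher and 1 lower at 6 h, and at 24 h 22 were higher in wild type, 24 in HK2 knockout and 22 in PGP knockout cells, with 0 lower in each. Their median log2 fold change was 1.62 at 6 h and 1.22 at 24 h in wild type. TRIB3, a stress-induced pseudokinase, had 3.87 at 6 h and 3.46 at 24 h, and SESN2, a leucine-responsive brake on mTORC1, had 2.83 at 6 h and 1.85 at 24 h. Of 20 interferon-stimulated genes tested, 9 were higher at 6 h, 18 at 24 h in wild type, 17 in HK2 knockout and 18 in PGP knockout cells. Beside both lists, 10.9% of all genes were higher at 6 h and 15.3% at 24 h in wild type. The share was 15.9% in HK2 knockout and 16.1% in PGP knockout cells. STAT2, a transducer of interferon signals, had 1.61 at 6 h and 2.25 at 24 h. Between 24 h and 6 h the interferon list had 15 genes higher and 0 lower with a median of 1.43. The ATF4 and CHOP list had 2 higher and 7 lower with a median of -0.33, and the cytosolic synthetases had 0 higher and 5 lower. Over all genes 8.48% were higher and 8.08% lower between these times. The 2 higher genes of the ATF4 and CHOP list are near that share. The mitochondrial class had negative medians at 6 h and 24 h, where both lists had positive ones. The part of either list in the level of WARS1 or another member was not tested.

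Counting of 4 members is uncertain because their annotated 3′ ends overlap another expressed gene. MARS1, the methionine enzyme, ends against DDIT3, which encodes CHOP and lies on the opposite strand. DDIT3 had a log2 fold change of 2.96 ± 0.21 at 6 h and between 1.35 and 1.71 in the 3 lines at 24 h, so reads of DDIT3 could add to those of MARS1 if strand was not used. HARS1 meets WDR55 and YARS2 meets DNM1L on opposite strands, and HARS2 meets ZMAT2 on its own strand. With these 4 left out, the called cytosolic genes were 10 at 6 h, 10 at 24 h in wild type, 10 in HK2 knockout and 14 in PGP knockout cells. HARS2 was not called in these comparisons. YARS2 was called in PGP knockout cells alone, and the 3 mitochondrial calls given above for that line include it.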

How the data were processed

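The labels name total RNA isolated with RNeasy and QuantSeq 3′ libraries. Per the submitters' processing notes, bcl2fastq 2.20.0.422, HISAT2, HTSeq and hg19 were used. The deposited table holds whole-number read counts by Ensembl ID, not normalized. Of 54042 genes, 51661 matched a symbol. Strand use, trimming and multi-mapping are not given in the sources used here. GENCODE 29 (GRCh38) served only to name overlapping genes, and RefSeq GRCh38.p14 for promoters.

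The test was edgeR's quasi-likelihood test (version 4.0.16, under R 4.3.3 with limma 3.58.1). Libraries were scaled by TMM, and filterByExpr (minimum count 10, total 15) kept 11610 genes. The fit took all 21 libraries, 1 coefficient for each of 7 groups, and had a common BCV (biological coefficient of variation) of 0.149. Calls had an adjusted p (Benjamini-Hochberg, across the genes kept) under 0.05. The SE is the log2 fold change divided by the root of F. CPM used TMM library sizes, and log2 CPM a prior count of 2. Alternatives were RLE factors, no filter, DESeq2 1.42.0, a replicate block, the compared groups alone and each library left out. The script was tested on simulated data. Tables and figures used Python 3.11.15, pandas 2.3.3, numpy 2.4.6 and matplotlib 3.10.9.

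Any of the 35 members could be named. Values in every library are given for the called members with the smallest adjusted p (up to 8 per class and comparison), GARS1, KARS1, WARS1 and members called against their class. Other lists give up to 4 called genes with the smallest adjusted p. QRSL1 meets that rule at 24 h in wild type and HK2 knockout cells. Its other values and those of GATB and GATC were added after they were seen. Members and lists were chosen with earlier results of these data known. Of the treatment comparisons, only PGP knockout 24 h and DMSO had all 6 libraries correlating best with their own replicate number. There the deviations from group means of same-numbered libraries correlated at 0.243, 0.164 and 0.247. All 6 also did so for PGP knockout against wild type in DMSO, at lower correlations of 0.084 to 0.095. The main fit had no term for replicate.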

Additional observations from a re-analysis of the deposited data

Results flagged for a closer look

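SARS2, the mitochondrial serine enzyme, had treated libraries on opposite sides of the DMSO mean in the knockout lines at 24 h, with neither response called. Every treated HK2 knockout library was above the HK2 knockout DMSO mean, with 22.6, 23.9 and 23.6 CPM after 24 h and 19.9, 24.8 and 22.5 CPM in DMSO. Every treated PGP knockout library was below the PGP knockout DMSO mean, with 22.2, 25.3 and 24.7 CPM after 24 h and 28.1, 32.5 and 31.2 CPM in DMSO. The responses differed by 0.4 on the log2 scale, and this difference was not tested. The treated means were close, at 23.35 CPM in HK2 knockout and 24.09 CPM in PGP knockout cells. The DMSO means were further apart, at 22.38 CPM in HK2 knockout and 30.59 CPM in PGP knockout cells. The log2 fold change was 0.06 ± 0.19 in HK2 knockout and -0.35 ± 0.19 in PGP knockout cells (edgeR, adjusted p = 0.85 and 0.17). Without replicate 1 of HK2 knockout DMSO the HK2 knockout value was -0.033, and the 24 h and DMSO libraries of HK2 knockout cells overlapped.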

How the results depend on the processing

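Calls held under all alternatives for 10 of 11 cytosolic and 0 of 4 mitochondrial genes at 6 h, 8 of 10 and 1 of 3 at 24 h in wild type, 2 of 5 and 0 of 1 for 24 h against 6 h, 5 of 10 and 0 of 2 in HK2 knockout and 10 of 15 and 1 of 3 in PGP knockout cells. The causes of the changes below were not tested, and mitochondrial genes had fewer counts.

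With the compared groups alone, called mitochondrial genes were 0 at 6 h, 5 at 24 h in wild type and 0 for 24 h against 6 h, and called cytosolic genes were 16 at 24 h in wild type and 2 for 24 h against 6 h. DESeq2 called 1 mitochondrial gene at 24 h in wild type. With no low-count filter, 2 mitochondrial genes were called for 24 h against 6 h and 1 cytosolic gene for PGP knockout against wild type in DMSO. With the replicate block, 5 mitochondrial genes were called at 24 h in wild type, and 8 cytosolic and 2 mitochondrial genes for 24 h against 6 h. Over all genes the block moved the calls to 3098 from 2556 at 6 h and to 3944 from 3465 at 24 h in wild type. In HK2 knockout cells it moved them to 3885 from 3418. In these comparisons 4, 5 and 3 of 6 libraries correlated best with their own number. Against wild type in DMSO, 5 of 6 did for HK2 knockout and 6 of 6 for PGP knockout cells. What same-numbered libraries shared is not given in the labels, and a replicate effect was not tested. For PGP knockout cells at 24 h the block left 18 members called, and it changed no member's call there.

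Leaving out 1 library gave 6 to 8 called cytosolic genes in HK2 knockout cells and 3 to 7 for 24 h against 6 h. It gave called mitochondrial genes of 1 to 5 at 6 h, 1 to 3 at 24 h in wild type, 1 to 2 for 24 h against 6 h, 0 to 3 in HK2 knockout and 1 to 3 in PGP knockout cells. The cytosolic median log2 fold change ran from 0.35 to 0.53 at 6 h, 0.23 to 0.38 at 24 h in wild type, -0.30 to -0.12 for 24 h against 6 h, 0.17 to 0.33 in HK2 knockout and 0.31 to 0.45 in PGP knockout cells. Its difference of response ran from -0.12 to -0.0093 for HK2 knockout and -0.11 to 0.046 for PGP knockout against wild type. The mitochondrial median ran from -0.18 to -0.076 at 6 h, -0.38 to -0.22 at 24 h in wild type, -0.24 to -0.031 for 24 h against 6 h and -0.058 to 0.055 for HK2 knockout against wild type in DMSO, and in the difference of response from -0.063 to 0.058 for HK2 knockout and -0.12 to 0.014 for PGP knockout.

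Uncalled genes that changed sign were IARS1 at 6 h (-0.0095 with no filter, -0.019 with the replicate block, -0.39 to 0.44 with a library left out), KARS1 at 6 h (-0.15 to 0.063), SARS2 at 24 h in wild type (-0.23 to 0.021) and HK2 knockout cells (-0.033 to 0.12), and YARS1 in PGP knockout cells (-0.0014 to 0.29).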
